A study of Mus musculus with 6 samples.

Results

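The regions described here are stretches of 5-hydroxymethylcytosine (5hmC) that lay inside very long genes of the mouse. Peaks of 4 deposited lists were merged wherever they shared 1 bp or more, and a merged region was taken when its midpoint fell inside a RefSeq protein-coding gene of the autosomes with a span of at least 500 kb on the build GRCm38. This gave 11346 of 171780 autosomal regions (6.60%), inside 216 of 20665 autosomal protein-coding genes (1.05%). The 216 genes together covered 180.1 Mb, which is 7.50% of the autosomes as measured here, and 55 of them spanned at least 1000 kb. Spans ran from 502 kb (Edil3) to 2271 kb (Ptprd), with a median of 735 kb. Each of the 216 genes held at least 15 regions and at least 4 regions called in all 4 libraries.

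The cells were immature myeloid cells sorted at passage 5 as GFP+, CD16/32+, CD11b- and Gr1-, from cultures of Kit-enriched bone marrow of Tet2fl/fl;CreER mice on the C57BL/6 background. All cultures, controls included, carried the leukaemia fusion protein AML1-ETO from the retrovirus MigR1-AE-IRES-GFP and grew with SCF, IL-3 and IL-6. The KO cultures received 200 nM 4-OHT (4-hydroxytamoxifen, which activates the Cre) for 2 passages, or 4 days, and the flox cultures received EtOH (ethanol). Each group had 2 libraries of DNA fragments pulled down with an antibody to 5hmC, all made with 14 PCR cycles and run in lane 3. The drug went to KO cultures alone, so its own effects, those of the Cre it activates and those of losing Tet2 cannot be told apart. The labels do not say whether the 2 libraries of a group came from separate cultures, so the spread between them, on which every test below rests, may be technical. The data are DNA measurements, so expression of these genes, markers of the sorted cells and the excision of Tet2 were not analysed here.

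TET enzymes oxidise 5-methylcytosine to 5hmC, and TET2 is one of the TET enzymes of blood cells and is often mutated in myeloid disease. In many cell types 5hmC is found along gene bodies and at enhancers rather than at active CpG-rich promoters. Most very long genes of mammals encode adhesion molecules, ion channels and synaptic scaffolds used by neurons, are split by huge introns and replicate late, and several of them are known as fragile sites. A smaller number of them, such as Mecom, Foxp1, Dock2 and Celf2, have known roles in blood cells.

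The places where 5hmC in a very long gene lay at or just before an annotated start are shown first, since they tie the peaks to sequence. RefSeq start windows (250 bases before to 50 bases after a start, GRCm38) were given for 169 of the 216 genes, 271 windows in all. In the lines that follow, the 250 bases before the start are written 5′ to 3′ on the gene's strand, with each CG, the dinucleotide on which TET enzymes mostly act, in capitals. The pair is from Mecom, which encodes a zinc finger transcription factor of blood stem cells in a long and a short form. The window of its outer start was called in every library, and that of its inner start was touched in the KO libraries only. Cntnap2, a neurexin-like adhesion protein, is the other gene with a start window called in KO libraries only. Lpp, a LIM domain protein of focal adhesions, and Lsamp, an adhesion protein of the IgLON family, show a CG-rich outer start and a CG-poor inner start that were both covered in full in every library.
Mecom, outer start, chr3:30509760-30510009, minus strand: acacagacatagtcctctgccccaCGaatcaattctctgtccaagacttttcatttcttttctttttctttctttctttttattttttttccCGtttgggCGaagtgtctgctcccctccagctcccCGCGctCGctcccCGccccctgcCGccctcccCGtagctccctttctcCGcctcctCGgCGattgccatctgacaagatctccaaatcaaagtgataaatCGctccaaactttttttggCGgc
Mecom, inner start, chr3:30013205-30013454, minus strand: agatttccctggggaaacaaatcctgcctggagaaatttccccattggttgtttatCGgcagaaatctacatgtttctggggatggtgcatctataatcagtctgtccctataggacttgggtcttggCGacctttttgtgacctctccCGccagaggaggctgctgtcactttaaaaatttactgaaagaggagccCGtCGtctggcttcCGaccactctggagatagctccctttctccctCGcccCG
Cntnap2, outer start, chr6:45059811-45060060, plus strand: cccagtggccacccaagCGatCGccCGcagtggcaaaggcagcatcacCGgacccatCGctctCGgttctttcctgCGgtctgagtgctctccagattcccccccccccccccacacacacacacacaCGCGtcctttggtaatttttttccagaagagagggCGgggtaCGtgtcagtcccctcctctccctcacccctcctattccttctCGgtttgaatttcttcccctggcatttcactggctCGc
Lpp, outer start, chr16:24393100-24393349, plus strand: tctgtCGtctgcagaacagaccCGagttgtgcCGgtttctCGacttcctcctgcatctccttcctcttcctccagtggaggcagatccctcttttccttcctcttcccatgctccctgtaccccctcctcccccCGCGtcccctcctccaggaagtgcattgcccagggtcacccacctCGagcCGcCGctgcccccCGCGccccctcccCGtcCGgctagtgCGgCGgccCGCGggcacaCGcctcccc
Lsamp, inner start, chr16:41532576-41532825, plus strand: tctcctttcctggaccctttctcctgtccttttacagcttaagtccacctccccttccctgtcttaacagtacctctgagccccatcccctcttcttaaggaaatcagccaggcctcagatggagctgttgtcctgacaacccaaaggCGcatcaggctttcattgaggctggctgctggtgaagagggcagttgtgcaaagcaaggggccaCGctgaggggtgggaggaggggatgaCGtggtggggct

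The outer start of Mecom holds 14 CG and its whole window of 300 bases lay under a peak in each of the 4 libraries. The window of the inner start, 497 kb further along the gene and with 8 CG, had no called base in either flox library. In KO replicates 1 and 2 it had 94 and 116 called bases, at its far upstream end. The region that touched this window, chr3:30013339-30014271, lay wholly before the start and did not cover it. It was KO-only, which means called in both KO libraries and in neither flox library. Its scores, the authors' -10 log10 p of a peak, were 107.9 and 123.3. At Cntnap2 the region over the start, chr6:45059173-45060215, was likewise absent from both flox libraries, and it covered 300 and 298 bases of the window in the KO libraries with low scores of 50.3 and 64.9. Its midpoint lay before the gene, so it is not among the 11346. These were the only 2 of the 271 windows called in both KO libraries alone, against 75 of 20085 windows over all genes. Windows called in both flox libraries alone also numbered 2, at Cadm2 and Negr1, against 104 of 20085 windows over all genes. Both lay at the edge of regions of 2448 and 2254 bp that all 4 libraries shared.

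The windows were called in all 4 libraries at 14 of 271 starts of very long genes (5.17%), beside 6.88% of 785 windows in genes of 200 to 500 kb and 5.46% of all 20085 windows. A peak of any library touched 47 of the 271 windows (17.3%), beside 16.7% and 14.4%. The 14 windows belonged to Cntnap5b, Mdga2, Sugct, Cdh18, Lpp, Kalrn, Lsamp, Ptprt, Mecom, Ank2, Magi2 with 2 windows, Magi1 and Dock1. Their content ranged widely, from 39 CG in the window of Ptprt, a receptor phosphatase, to 3 CG in the inner starts of Lsamp and Magi2. The median was 13 CG in the 14 windows and 9 CG in windows with no peak. The core of the motif bound by RUNX factors, the DNA-binding part of AML1-ETO, is TGTGGT, searched on both strands. These letters occurred in 28 of the 271 upstream stretches (10.3%) and in 2446 of 20085 over all genes (12.2%), and in 3 of the 14.

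Inside very long genes 5hmC regions were sparser than elsewhere on the autosomes. There were 63.0 regions per Mb in very long genes, 71.2 in shorter genes and 72.7 between genes. Genes of 200 to 500 kb, of 50 to 200 kb and under 50 kb held 71.4, 70.7 and 71.2 per Mb and did not decline with span among themselves. Pooled over nested sets of long genes, peak density relative to the rest of the autosomes fell as the span limit was raised. It was 0.903 in genes of at least 300 kb, 0.850 in those of at least 500 kb and 0.796 in those of at least 1000 kb. Gene by gene, density did not fall with span among the 216 very long genes (Spearman correlation -0.01). Called length, the number of bases under peaks, was 36849 and 35791 bp per Mb of very long gene in flox replicates 1 and 2, and 37161 and 37345 bp per Mb in KO replicates 1 and 2. In shorter genes the same libraries had 49690 and 48459 against 46676 and 46455 bp per Mb. Peaks in very long genes were also shorter, with medians of 854, 832.5, 854 and 820 bp in flox 1, flox 2, KO 1 and KO 2, against 937, 911, 926 and 891 bp in shorter genes. Their median score stood at percentile 47.5 to 48.6 of each library's own autosomal peaks.

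The classes did not move the same way between genotypes, as the plot of called length by gene span shows. In very long genes both KO libraries were above both flox libraries, by 2.57% of the flox mean (36320 ± 748 against 37253 ± 130.5 bp per Mb, SD, n = 2, exact permutation test, two-sided, p = 0.333). In shorter genes the order was the opposite, with a difference of -5.11% of a flox mean of 49074 bp per Mb, and in genes under 50 kb the difference was -8.15% (exact permutation p = 0.333 for each). The smallest p that 2 libraries against 2 allow is 0.333, so none of these differences could pass a threshold of 0.05. Between genes and in genes of 200 to 500 kb the libraries of the 2 genotypes overlapped.

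**Figure D1:**
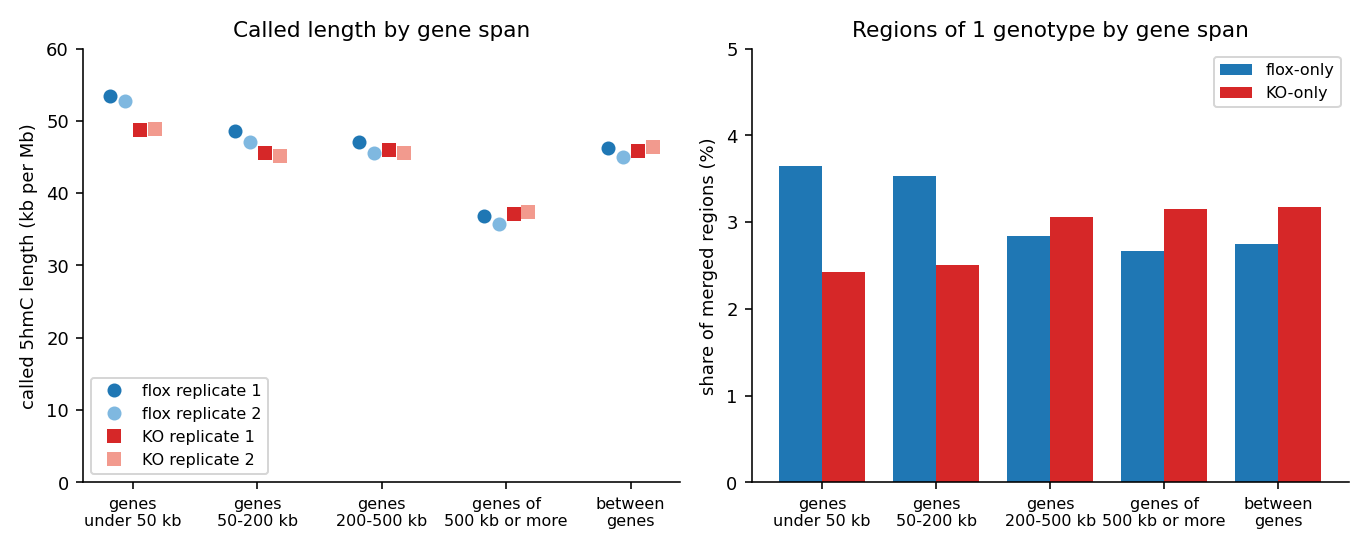
Left, called 5hmC length per Mb (kb) for each library in genes of 4 span classes and between genes, with circles for flox and squares for KO. Right, the percentage of merged regions in each class that were flox-only or KO-only; KO squares lie under the flox circles in genes under 200 kb and above them in genes of 500 kb or more, and flox-only bars exceed KO-only bars only in the first 2 classes.

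As a share of all autosomal called bases, very long genes took 5.91% and 5.90% in the flox libraries and 6.13% and 6.12% in the KO libraries. The difference was 0.215 percentage points, with an SD of 0.008 within flox, and the exact permutation p was again 0.333. The density of called bases in very long genes relative to that in shorter genes was 0.742 and 0.739 in flox and 0.796 and 0.804 in KO. Relative to the stretches between genes it was 0.796 and 0.795 in flox and 0.811 and 0.804 in KO. So the ratio to shorter genes moved by 8.10% of its flox mean and the ratio to the space between genes by 1.47%, with no overlap of the genotypes in either.

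The presence patterns over the 4 libraries described the same genes region by region. In very long genes 4271 regions (37.6%) were called in all 4 libraries, 1917 (16.9%) in 3, 1994 (17.6%) in 2 and 3164 (27.9%) in 1 only. Over all autosomal regions 39.8% were called in all 4. Regions of 1 library numbered 771 and 725 for flox replicates 1 and 2, and 777 and 891 for KO replicates 1 and 2. There were 303 flox-only and 357 KO-only regions, while the 4 mixed pairs, each of 1 flox with 1 KO library, held 309 to 368. As shares of the regions in very long genes these were 2.67% flox-only, 3.15% KO-only and 2.72% to 3.24% for the mixed pairs. Over all autosomal regions the shares were much alike, with 2.95% flox-only, 2.99% KO-only and 2.40% to 3.11% for the mixed pairs. In neither set did both within-genotype pairs exceed all mixed pairs.

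The ratio of flox-only to KO-only regions differed between classes of span. It was 0.849 in very long genes, 0.929 in genes of 200 to 500 kb, 1.41 in genes of 50 to 200 kb and 1.505 in genes under 50 kb. Between genes it was 0.865. Expressed as a share, flox-only regions made up 45.9% of those of 1 genotype in very long genes (95% Wilson interval 42.1 to 49.7), 56.2% in shorter genes (54.6 to 57.9) and 46.4% between genes (45.1 to 47.6), with 49.7% over all autosomal regions. These intervals cover counting error over regions only, and regions of 1 library are not replicates, so the difference between classes was not tested. When peaks scored under 100 were left out, the ratio was 0.693 in very long genes, 1.14 in shorter genes and 0.706 between genes, and among the top 50000 peaks by score of each library it was 0.877, 1.32 and 0.908 in the same order.

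Regions of 1 genotype scored lower than regions of all 4 libraries. The median score of flox-only regions in very long genes was 69.3 and 70.6 in the flox libraries, and that of KO-only regions 68.8 and 73.5 in the KO libraries, against 118.7, 118.1, 120.6 and 123.4 for regions of all 4 libraries. Median lengths were 889 bp for flox-only, 902 bp for KO-only and 1225 bp for regions of all 4 libraries. Merging peaks of more libraries itself widens a region. Scores and lengths of the mixed pairs were not compared, so neither trait is shown to be particular to regions of 1 genotype. In 225 of the 303 flox-only regions (74.3%) and 256 of the 357 KO-only regions (71.7%) no library reached a score of 100, where the lowest deposited score is 50. At least 1 flox-only region occurred in 149 genes and at least 1 KO-only region in 165, and 20 genes had neither. KO-only regions were the more numerous in 90 genes, flox-only regions in 69, and the numbers were equal in 57.

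Single genes were then compared by called length, scaled to the same autosomal total in each library and tested with limma on log2(bp + 500) over 10504 genes, all 216 very long ones among them. On this scale differences of genes with little called length are understated. No very long gene passed a Benjamini-Hochberg adjusted p of 0.05, nor did any gene tested (0 of 10504, percent called 0), with 0.767 as the lowest adjusted p of limma. Below 0.05 without adjustment limma placed 21 very long genes as higher in KO and 3 as lower, where 2.02% of all genes tested were higher and 4.43% lower at that level. Of the 216 genes, 69 (31.9%) had a log2 difference under 0, beside 54.2% of all genes tested. Their median log2 difference was 0.05, beside -0.03 over all genes tested, 0.01 in genes of 200 to 500 kb, -0.03 in those of 50 to 200 kb and -0.05 in those under 50 kb. Both KO libraries lay above both flox libraries in 56 very long genes (25.9%, background 14.8%) and below them in 18 (8.33%, background 21.2%). The median standard error of the very long genes was 0.104 on the log2 scale, against 0.269 over all genes tested.

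**Figure D2:**
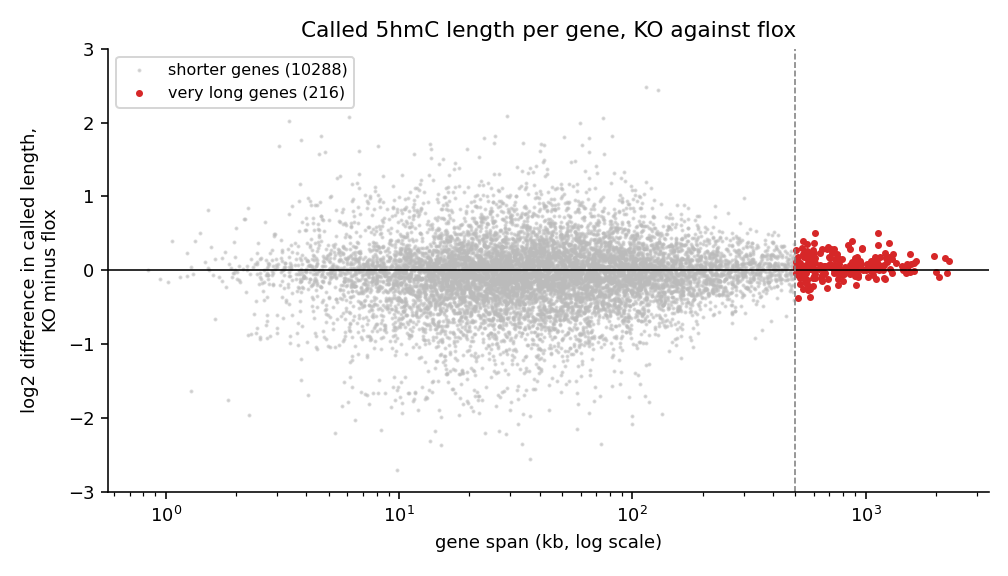
Log2 difference in scaled called 5hmC length, KO minus flox, against gene span in kb on a log axis, for 10288 shorter genes (grey) and 216 very long genes (red), 1 point per gene. The very long genes lie between -0.38 and 0.51, a narrower band than the shorter genes, with 147 of the 216 above 0.

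Among genes with both KO libraries above both flox libraries, the 6 with the smallest p were Kcnip4, Magi1, Ntm, Dock1, Lpp and Marchf1, and none passed the threshold. Kcnip4, on chromosome 5 from 48389503 to 49525122, encodes a calcium-binding partner of potassium channels. Its called length was 23042 and 22187 bp in the 2 flox libraries and 30038 and 34334 bp in the 2 KO libraries. The log2 difference was 0.51 with a standard error of 0.09 (limma's adjusted p = 0.767). Both KO values lay above both flox values, as the choice of genes required, and choosing by smallest p favours close replicates. With no filter on called length, limma gave Kcnip4 an adjusted p of 0.0289, the only very long gene past the threshold in any setting, and once peaks scored under 100 were left out its log2 difference turned to -0.42.

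Kcnip4 had 62 regions, 12 of them in all 4 libraries, 6 KO-only and 1 flox-only. The 6 KO-only regions lay 394, 585, 593, 672, 785 and 985 kb from the start of the gene, spread over its middle and far part. None of the 6 reached a score of 100 in either library, the highest being 98.8. The widest of them, chr5:49129756-49131659, spanned 1904 bp with scores of 93.3 and 94.8. The flox-only region, at 226 kb, had scores of 57.2 and 116.5.

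Magi1, on chromosome 6 from 93675453 to 94283929, encodes a scaffold protein of cell junctions and was one of the sparsest genes, with 20 regions or 32.9 per Mb. The 2 flox libraries had 8296 and 7958 bp called and the 2 KO libraries 11528 and 11760 bp (log2 difference 0.51, standard error 0.12, limma's adjusted p = 0.767). That the genotypes did not overlap was again required by the choice of genes. Of its 20 regions 5 were called in all 4 libraries, 6 were KO-only and none was flox-only. The 6 lay between 108 and 466 kb from the start, and none reached a score of 100 (highest 97.0). Among the top 50000 peaks by score the log2 difference of Magi1 was -0.03.

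Ntm, which encodes neurotrimin, an adhesion protein of the IgLON family, had 31322 and 32518 bp called in flox against 37581 and 40698 bp in KO (log2 difference 0.30, standard error 0.08). With scores under 100 left out the value for Ntm was -0.005, and with the highest scored 50000 peaks it was -0.04. Dock1, an activator of the GTPase Rac that works with Elmo proteins, had 26269 and 24571 bp in flox against 30620 and 30246 bp in KO (0.27, standard error 0.08). Lpp had 15106 and 13217 bp against 18229 and 18154 bp (0.37, standard error 0.11). Marchf1, a ubiquitin ligase that lowers surface MHC class II, had 23637 and 24700 bp against 30030 and 28741 bp (0.29, standard error 0.08). The genotypes were apart in each of these 4 genes because the choice of genes required it, and limma's adjusted p was 0.767 for each. Differences for Dock1, Lpp and Marchf1 stayed above 0 in all 13 alternative settings run on them. The choice of genes fixed this sign in advance in most of these. It could not turn with 1 library left out, another constant than 500 bp, no filter or a replicate block. Where it could turn, the values were 0.21, 0.43 and 0.55 with scores under 100 left out. They were 0.25, 0.44 and 0.49 in the 50000 highest scored peaks.

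Among genes with both KO libraries below both flox libraries, the 6 with the smallest p were Cdk14, Zfhx3, Smyd3, Camta1, Nlgn1 and Nfia, and none passed. Cdk14, a cyclin-dependent kinase, had 22396 and 18836 bp called in flox against 15575 and 15790 bp in KO (log2 difference -0.36, standard error 0.11, limma's adjusted p = 0.767). With the 50000 highest scored peaks the value for Cdk14 was 0.03. Smyd3, a lysine methyltransferase, had 22862 and 25227 bp against 20094 and 19240 bp (-0.27, standard error 0.10). Camta1, a calmodulin-binding transcription activator, had 83172 and 86512 bp against 77876 and 74560 bp (-0.14). Nlgn1, the synaptic adhesion protein neuroligin 1, and Nfia, a transcription factor of the nuclear factor I family, had log2 differences of -0.19 and -0.25. Single libraries weighed on these 3 values, which were -0.09 for Camta1 without flox replicate 2, -0.13 for Nlgn1 without KO replicate 1 and -0.14 for Nfia without flox replicate 1. Smyd3, Camta1, Nlgn1 and Nfia kept values under 0 in all 13 alternative settings. As above, the choice of genes fixed the sign in advance in most of these, leave-outs of 1 library included. Where it could turn, the values were -0.12, -0.13, -0.39 and -0.18 with scores under 100 left out. They were -0.16, -0.08, -0.46 and -0.25 in the 50000 highest scored peaks.

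Zfhx3, a homeobox and zinc finger transcription factor on chromosome 8 from 108279311 to 108961636, stood out by density as well. It held 91 regions, or 133.4 per Mb, 1.59 times the density of its flanks (up to 500 kb on each side, outside very long genes). The flox libraries had 70487 and 71165 bp called and the KO libraries 64014 and 54661 bp (log2 difference -0.24, standard error 0.09, adjusted p = 0.768 by limma). KO replicate 2 was far lower than the other 3 libraries, and without it the log2 difference was -0.13. Zfhx3 had 6 flox-only and 2 KO-only regions. The 6 flox-only regions lay between 346 and 534 kb from the start, 2 of them side by side at 461 and 464 kb, while the 2 KO-only regions lay nearer to the start at 218 and 265 kb. With scores under 100 left out the log2 difference of Zfhx3 was 0.18, and in the highest scored 50000 peaks it was 0.26.

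The largest excess of flox-only over KO-only regions was seen in Ptprd (6 against 2), Lrp1b (6 against 2), Zfhx3 and Kalrn (5 against 1). Ptprd is a receptor phosphatase of synapses and Lrp1b a receptor of the LDL receptor family. The largest excess of KO-only regions was seen in Magi1 (6 against 0), Lsamp (6 against 1), Kcnip4 (6 against 1) and Dscam, an adhesion molecule of neurons (5 against 1). In Lsamp the 6 KO-only regions were strung over the gene from 266 to 2017 kb from its start, with the flox-only region at 565 kb. Called length in Lsamp was 53910, 61154, 60237 and 67224 bp in flox 1, flox 2, KO 1 and KO 2, so the genotypes overlapped. In Kalrn the flox-only regions ran from 1.73 kb to 557 kb from the start. In Ptprd called length was 48273, 57485, 53807 and 60250 bp, a log2 difference of 0.13 in the direction opposite to its region counts. The map of merged regions along 6 genes shows that regions of 1 genotype lay scattered among shared ones rather than in a single block.

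**Figure D3:**
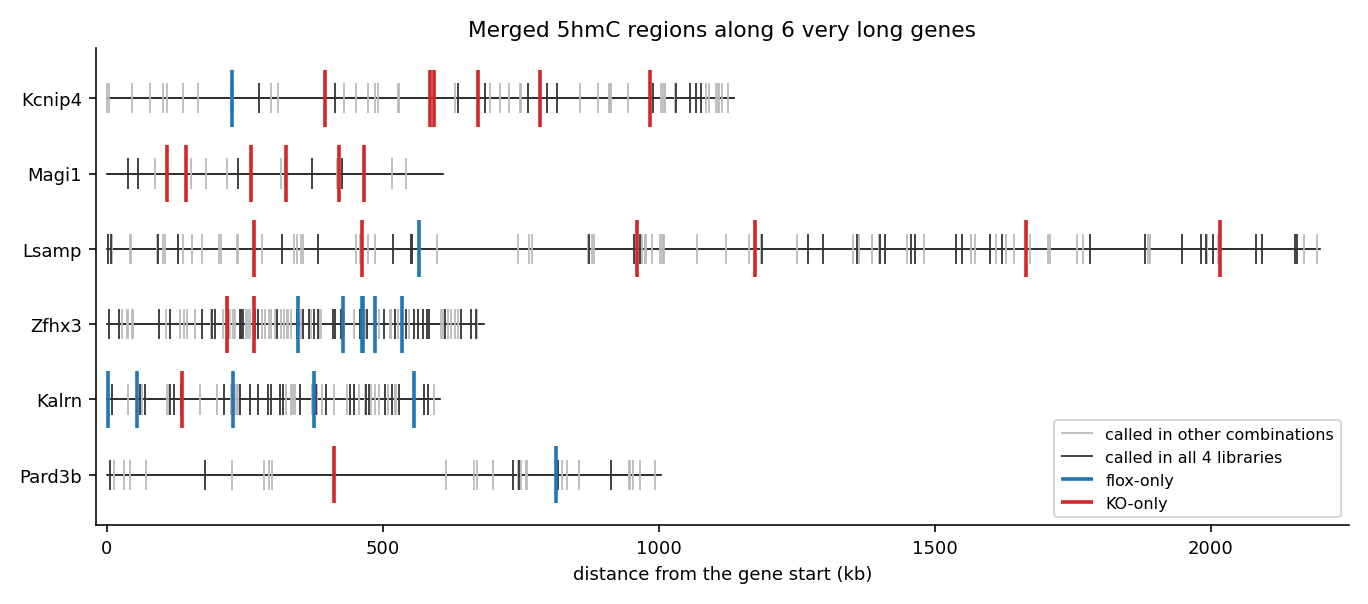
Merged 5hmC regions along 6 very long genes, by distance from the gene start in kb, with black marks for regions called in all 4 libraries, grey for other combinations, blue for flox-only and red for KO-only. Kcnip4 and Magi1 carry 6 KO-only regions each, Lsamp 6 over its 2197 kb, Zfhx3 6 and Kalrn 5 flox-only regions, and Pard3b shows the longest stretch without a region, 201849 bp.

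The widest regions were shared ones, where merging peaks of more libraries itself adds width. The widest region called in all 4 libraries lay in Sugct at chr13:17379831-17384026 (4196 bp), but single libraries covered 889 to 3980 bp of it with scores of 81.2 to 109.6. The next, in Rbms3, an RNA-binding protein, at chr9:117412403-117416050 (3648 bp), had high scores of 316.8 to 546.2, and one in Cdh13 at chr8:118469371-118472819 (3449 bp) had 605.1 to 756.3. Regions in Ptprn2 (3639 bp) and Gabrg3 (3403 bp) completed the 5 widest. The widest flox-only regions lay in Nav2 (1937 bp), Gabrg3 (1691 bp) and Kcnma1 (1665 bp), and the widest KO-only ones in Dscam (1957 bp), Rabgap1l (1934 bp) and Kcnip4. All 6 of these had scores of at most 121.1.

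Called length varied more between very long genes than it did between libraries. Its mean over libraries ran from 14.3 to 126.2 bp per kb of gene, with quartiles of 25.6, 33.0 and 43.6. The coefficient of variation of scaled called length over the 4 libraries had a median of 8.10% per gene. Regions per Mb ran from 29.9 in Edil3 to 160.0 in Csmd2, with quartiles of 48.0, 59.7 and 72.4. Genes of 200 to 500 kb had a median of 65.4 regions per Mb (n = 729). Under 50 regions per Mb were 64 very long genes (29.6%) and 27.2% of the genes of 200 to 500 kb, and over 100 per Mb were 16 (7.41%) and 16.3%. The classes differed more in the share of genes over 100 per Mb than in the share under 50 per Mb. The median was also lower in very long genes, at 59.7 against 65.4 regions per Mb. Density in genes of 200 to 500 kb rests on shorter spans, where counting alone can spread it more widely. The difference in very dense genes was not tested against this. Near the limit of the rule, the 3 genes just inside, Edil3, Dock1 and Samd12, had 29.9, 69.6 and 49.7 regions per Mb, and the 3 just outside, Dnm3, Lrrc7 and Cacna1e, had 72.6, 40.4 and 81.0.

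The 5 densest genes were Csmd2 (93 regions), Zfhx3, Cdh13 (157 regions), Camta1 (105 regions, 130.9 per Mb) and Rbms3 (124 regions, 117.3 per Mb). Csmd2 encodes a large transmembrane protein with complement control domains and Cdh13 a cadherin held by a lipid anchor. In Cdh13 the called length hardly moved, with 126307 and 127742 bp in flox against 124015 and 127771 bp in KO, and 90 of its regions were called in all 4 libraries, the most of any very long gene. Rbfox1, a splicing regulator, held the largest number of regions, 164, over 1528 kb, with called lengths of 102191, 103745, 106933 and 105977 bp in flox 1, flox 2, KO 1 and KO 2. Zfhx3, Wwox (116.1 per Mb), an oxidoreductase gene at a fragile site, and Cdh13 all lie on chromosome 8, in this order from 108279311 to 119324929. The 5 sparsest genes were Edil3 (15 regions), Vps13b (17), Lama2 (20), Pard3b (32) and Magi1 (20), all under 33 regions per Mb. Lama2 encodes a laminin chain of muscle basement membranes, Vps13b a lipid transfer protein and Pard3b a protein of the cell polarity complex.

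The level of a gene followed that of its surroundings in part. Over the 216 genes the Spearman correlation of density inside the gene with density in its flanks was 0.546, and with the span of the gene -0.01, as a description across genes that share libraries. The flanks had a median of 68.0 regions per Mb, and the ratio of gene to flank had a median of 0.893. The gene was sparser than its flanks in 138 of 216 cases. Ratios ran from 0.375 in Gm37013, which overlaps 2 other very long genes and shares peaks with them, to 1.78 in Tenm4, a teneurin of the neuronal surface with 78.4 regions per Mb against 44.0 around it. Zfhx3 (1.59) and Fgf14 (1.56) followed. Vps13b (0.394) and Magi1 (0.463) were sparse within denser surroundings, and Sdk1, an adhesion molecule, was dense (97.5 per Mb) but less so than its flanks (150.0).

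**Figure D4:**
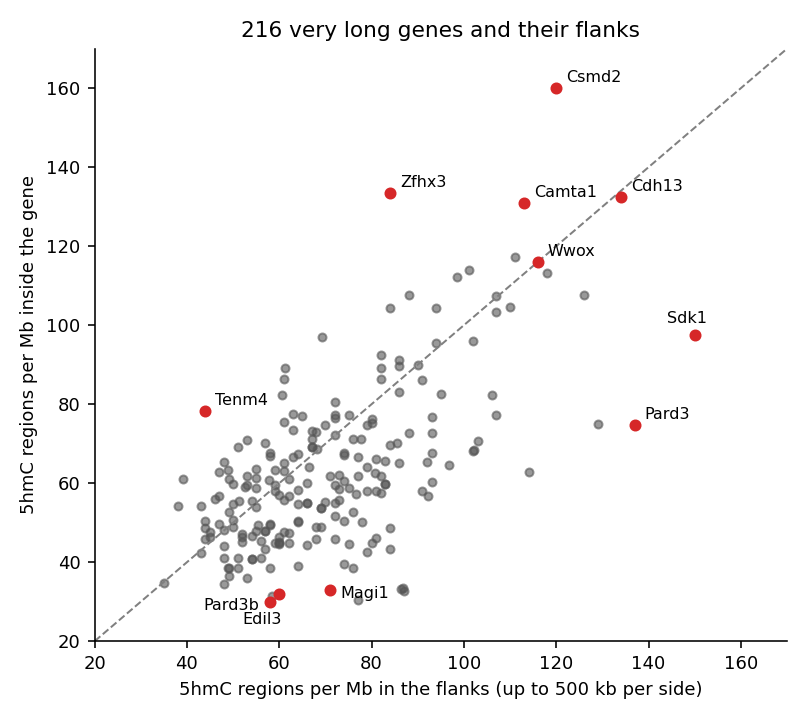
Merged 5hmC regions per Mb inside each of 216 very long genes against regions per Mb in the flanks of up to 500 kb per side, 1 point per gene, with the dashed line marking equal density. More points lie under the line (138) than above it, Csmd2, Zfhx3 and Tenm4 lie well above it, and Sdk1 and Pard3 well below.

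Within a gene the regions left long stretches free. The longest stretch without a region had a median of 67453 bp per gene and ranged from 22017 bp in Csmd2 to 201849 bp in Pard3b (chr1:62050408-62252256). It was also long in Skint5, Cntnap2 and Dock2, a Rac activator of leukocytes, with 185991, 181194 and 156025 bp. The most even gene between libraries was Macrod2, an enzyme that removes ADP-ribose, with a coefficient of variation of 1.53% (65847, 63993, 63540 and 62383 bp called in flox 1, flox 2, KO 1 and KO 2). The least even was Ank2, an ankyrin of the membrane skeleton, with 31.7%, where flox replicate 2 had 23040 bp and the other libraries 12402 to 15088 bp. The longest genes, Ptprd, Cntnap2, Lsamp, Lrp1b and Macrod2, held 108, 92, 105, 98 and 122 regions, at 41.0 to 61.1 per Mb.

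Along the genes 5hmC was fairly even, with slightly more at the start. Each of the 169 genes with a known strand was cut into 10 segments of equal length. The first segment held 70.0 regions per Mb and the other segments 60.5 to 65.9. The share of called bases in the first segment was 11.41% and 11.43% in flox and 11.35% and 10.96% in KO, where an even spread gives 10%. The difference between genotypes was -0.261 percentage points (exact permutation p = 0.333), with -0.069 points without KO replicate 2. In the last segment the share was 10.5% and 10.4% in flox and 10.7% in both KO libraries, and in segment 5 it was 9.18% to 9.31%. Flox-only regions numbered 15 to 30 per segment and KO-only regions 21 to 37, with no segment empty of either. In genes of at least 1000 kb alone the share of the first segment was nearer to 10%. It was 9.99% and 10.7% in flox replicates 1 and 2 and 10.5% in both KO libraries.

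**Figure D5:**
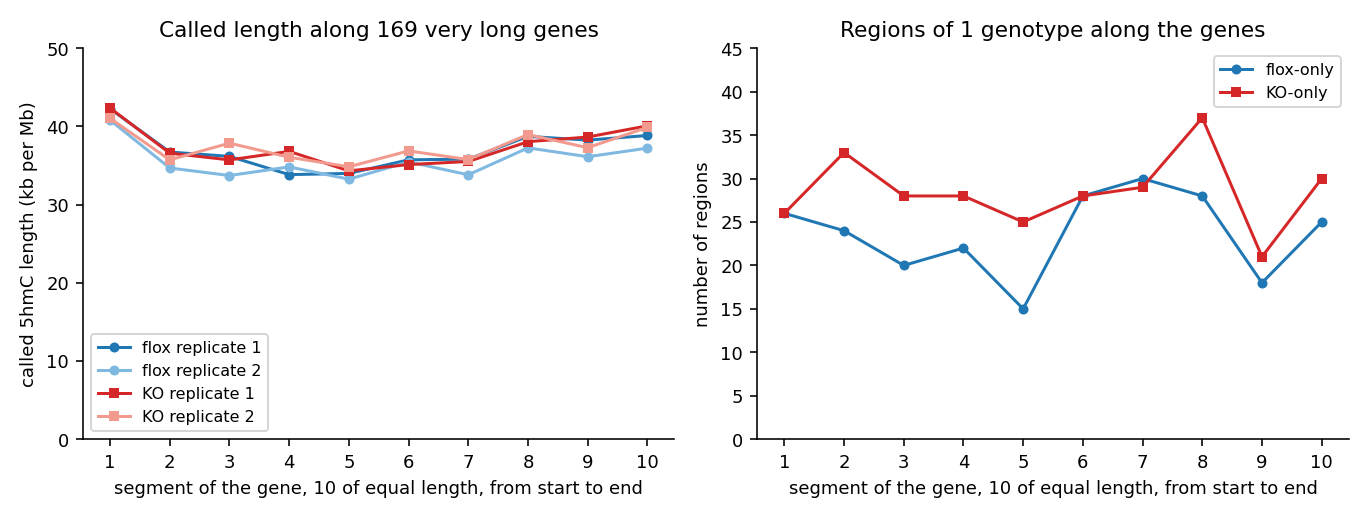
Left, called 5hmC length per Mb (kb) in each of 10 equal segments of 169 very long genes, from start to end, 1 line per library. Right, the number of flox-only and KO-only regions in each segment; all 4 libraries are highest in the first segment and the lines of the genotypes cross along the genes.

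Closer to the start the density was higher still. The first 5 kb held 72 regions, or 85.2 per Mb, 26 of them in all 4 libraries. From 5 to 20 kb there were 70.2 per Mb, from 20 to 50 kb 72.6, from 50 to 100 kb 63.8, from 100 to 200 kb 64.7 and from 200 to 500 kb 60.7. In the 538 genes of 200 to 500 kb with a known strand the values were 83.3, 77.3, 78.2, 73.7 and 69.1 per Mb from the first 5 kb to the bin of 100 to 200 kb. So both classes had a like density in the first 5 kb, and very long genes were the sparser from there on, a difference that was not tested. Called length in the first 5 kb was 54704 and 53004 bp per Mb in flox against 54686 and 55479 bp per Mb in KO, which overlapped.

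Single genes departed far from the even spread. The first segment held more than 10% of the called bases in all 4 libraries in 65 of 169 genes and less than that in all 4 in 40. The extremes were Skint5, of a family that supports T cells of the skin, with 38.8% on average, and Tenm2, a teneurin, with 0.408%. Of 1690 segments only 38 (2.25%), in 29 genes, held no region at all.

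Lists of genes by function, drawn up with earlier results of these data known, are described by their counts only. No list held a gene past limma's adjusted threshold. Over all 216 genes, 147 had a log2 difference above 0 and 69 below. Both KO libraries lay above both flox libraries in 56 and below in 18, beside 14.8% and 21.2% of all genes tested. Counted per gene, as for the lists, the 216 had 309 flox-only and 362 KO-only regions. Of 42 very long genes for axon and synapse adhesion, 33 had a log2 difference above 0 and 9 below, with a median of 0.10, beside 0.05 over the 216. Both KO libraries lay above both flox libraries in 16 of them and below in 3, and their regions included 67 flox-only and 102 KO-only. The leaders by shared regions were Cdh13 and Sdk1. Of 36 genes for ion channels, receptors and synapse scaffolds, 25 were above 0 and 11 below (median 0.07), near the share over the 216. These 36 genes had 49 flox-only and 61 KO-only regions. They were led by Asic2, an acid-sensing channel subunit with 117 regions, and Magi2, a synaptic scaffold with 83.

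Of 22 genes for receptor tyrosine and phosphatase signalling, 11 were above 0 and 11 below (median 0.001), and flox-only regions outnumbered KO-only ones, 46 to 33. Here Gpc6, a glypican, and Ptprn2, a receptor phosphatase of secretory vesicles, led with 38 shared regions each. Of 24 large genes of fragile sites 17 were above 0 and 7 below (median 0.07), near the share over the 216. These 24 genes were sparser, with a median of 53.2 regions per Mb against 59.7 over the 216. Of 18 genes for transcription and chromatin factors 12 were above 0 and 6 below (median 0.05), also near that share. The 18 held 65.8 regions per Mb in the median and 81.8 when pooled, the highest pooled value of the 6 lists. This list also takes in Rbfox1, the splicing regulator with the most regions of any very long gene.

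The 23 very long genes listed for a role in blood cells were split evenly, with 12 log2 differences above 0 and 11 below (median 0.005). The list is broad, and no such role is given here for members such as Lrmda, Exoc4 and Pard3. The 23 genes had 30 KO-only and 29 flox-only regions. Both KO libraries lay above both flox libraries in 9 and below in 4. Over the 216 very long genes the same held in 25.9% and 8.33%, and over all genes tested in 14.8% and 21.2%. Below 0.05 without adjustment in limma, 6 of the 23 were higher in KO, namely Dock1, Lpp, Lrba, Plcb1, Mecom and Arhgap24, and 2 lower, Cdk14 and Zfhx3. The same counts were 21 and 3 of the 216 very long genes, and 2.02% and 4.43% of all genes tested. All of these had an adjusted p of 0.767 or 0.768. Mecom, on chromosome 3 from 29951296 to 30509759, had 20211 and 21002 bp called in flox against 25414 and 23777 bp in KO (log2 difference 0.26, standard error 0.09). The KO values were above both flox values, and Mecom was dense for its surroundings, with 82.4 regions per Mb against 60.5 in its flanks. Lrba, a protein that keeps CTLA4 from degradation, had 12048 and 13107 bp against 15830 and 16398 bp (0.36, standard error 0.11). Plcb1, a phospholipase C, had 18781 and 20055 bp against 23060 and 25015 bp (0.32, standard error 0.10), and Arhgap24, a GTPase-activating protein of Rac, had 36076 and 34770 bp against 40616 and 39103 bp (0.18, standard error 0.07).

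Other genes of this list were steadier. Rora, a nuclear receptor of lymphoid development, had 103.4 regions per Mb and 48912, 47632, 49248 and 49529 bp called in flox 1, flox 2, KO 1 and KO 2 (log2 difference 0.05). Lrmda, a gene named for melanocyte differentiation, had 50287, 45570, 49369 and 47443 bp. Elmo1, the partner of Dock proteins, had 19465, 17039, 18562 and 17626 bp (0.005). Inpp4b, a phosphatase of phosphoinositides, and Pde4d, which breaks down cyclic AMP, had log2 differences of -0.06 and -0.04 with overlapping libraries. Foxp1, a forkhead transcription factor of B cells, had 23633, 25641, 21221 and 24258 bp (-0.10) and neither a flox-only nor a KO-only region. Dock2 had 22002, 21267, 19035 and 22804 bp (-0.04), and Celf2, an RNA-binding protein of T cells, had 30216, 27250, 30379 and 29662 bp (0.08).

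Among the rest of the list, log2 differences were 0.25 for Exoc4, a subunit of the exocyst, and -0.20 for Zbtb20, a zinc finger repressor of plasma cells, each with the genotypes apart after scaling. Hdac9, a histone deacetylase, had 0.01, Pde4b, another cyclic AMP phosphodiesterase, -0.001, Ptprk, a receptor phosphatase, -0.05, Arhgap15, a GTPase-activating protein of Rac, -0.11 and Pard3, a cell polarity protein, -0.12. Pard3 was the one of these 7 with the greatest contrast to its surroundings, at 74.7 regions per Mb against 137.0 in its flanks. Limma gave none of the 7 an adjusted p under 0.80.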

How the data were processed

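Of the 6 samples of the series, 2 flox and 2 KO libraries were analysed. IgG and input libraries were not used here. Per the submitters' processing notes, CASAVA 1.8, Bowtie, MACS 1.4 and GRCm38 (mm10) were used, without roles or order. For settings, control library and duplicate handling, nothing is given in the sources used here. The authors deposited 1 peak list per library (116539 to 122101 peaks, start and end in bp) with a score and a p-value per peak. Each deposited score equalled -10 log10 of its deposited p-value to within 0.02, except for 1 peak. Read depth is unknown, so intervals cover counting over regions only.

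Peaks were merged with Python 3.11.15 (numpy 2.4.6, pandas 2.3.3, scipy 1.17.1, matplotlib 3.10.9), and a merge with bedtools 2.31.1 returned as many regions. Gene spans, strand (169 genes, from the start windows) and sequences came from RefSeq tables of GRCm38. Called length per gene, scaled to equal autosomal totals, was tested with limma 3.58.1 in R 4.3.3, with a trend and robust variances, over the genes whose mean reached 500 bp. On simulated data with 10504 genes, 100 changed at each size, limma recovered 39% at a log2 change of 1 and 83% at 3, with 9 false calls. Library values were compared by two-sided exact permutation tests.

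Members, lists and the rule for named genes were chosen with earlier results of these data known. Named were the 6 genes with the smallest p per direction among those whose genotypes did not overlap, the 5 densest and 5 sparsest, the 4 with the largest excess of flox-only or KO-only regions, the 5 longest, the 2 with the most shared regions per list, all of the blood list, and the widest regions (5 shared, 3 per genotype), without genes known only by a Gm number or a Rik name. Start windows, extremes of flank ratio, gaps, position and evenness, and Gm37013 were singled out after their values were seen.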

Additional observations from a re-analysis of the deposited data

Results flagged for a closer look

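Chromosome X lies outside the rule on autosomes, and its very long genes still carried 5hmC peaks. Dmd, the dystrophin gene and the longest of them, had 22 regions, of which 7 were called in all 4 libraries, and called lengths of 32519, 31427, 34010 and 35887 bp in flox 1, flox 2, KO 1 and KO 2. The 11 very long genes of chromosome X held 95 regions, 17 of them called in all 4 libraries, at 9.07 regions per Mb, beside 13.2 per Mb over chromosome X as a whole.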

How the results depend on the processing

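The number of very long genes past limma's adjusted threshold was 0 in each setting run except with no filter on called length, where it was 1 (Kcnip4); that setting adds genes with no called length and no spread to the estimate of variance. The share of the 216 genes with less called length in KO (31.9%) stayed under 50% in every setting, from 25.5% in genes of at least 1000 kb to 42.6% in the 50000 highest scored peaks, with 40.3% with no scaling and 37.0% to 41.7% when 1 library was left out, where the lone library is assumed to vary like the others. The difference in the share of called bases (0.215 points) kept its sign in all settings (0.107 to 0.246; 0.209 to 0.221 with 1 library left out). Density relative to the rest of the autosomes (0.850) was 0.802 with scores of at least 100, 0.792 in the 50000 highest scored peaks, 0.796 in genes of at least 1000 kb and 0.903 in those of at least 300 kb (0.846 to 0.855 with 1 library left out). Flox-only regions, 45.9% of those of 1 genotype, were 40.9% with scores of at least 100 and 45.8% to 48.4% otherwise; patterns without 1 library were not formed, since they need both libraries of each genotype. The difference in the first of 10 segments (-0.261 points) was 0.164 in genes of at least 1000 kb, -0.866 with scores of at least 100, -0.641 in the 50000 highest scored peaks and -0.453 to -0.069 with 1 library left out. Of the named genes, Cdk14 turned to 0.0341, Kcnip4 to -0.734, Magi1 to -0.0256, Ntm to -0.0397 and Zfhx3 to 0.263 in the 50000 highest scored peaks, and with scores of at least 100 Kcnip4 turned to -0.421, Ntm to -0.00477 and Zfhx3 to 0.18. The cause was not tested. The comparison of classes by score was chosen after seeing the data.

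Libraries of the same replicate number showed little shared deviation in called length (correlation 0.00 over 10504 genes and 0.0735 over the 216 very long ones). This cannot tell whether they came from paired cultures. With the number as a replicate block in limma, 0 very long genes passed and the share with less called length in KO was 31.9%, as without it.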

Other observations

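The IgLON adhesion proteins, small surface proteins of neurons held by a lipid anchor, have 4 very long genes, picked out here after their values were seen. All 4 had a log2 difference above 0: Opcml 0.34, Ntm 0.30, Negr1 0.23 and Lsamp 0.16, with standard errors of 0.13, 0.08, 0.11 and 0.10, and limma's adjusted p ranged from 0.767 to 0.830. In Opcml called length was 28812 and 35581 bp in flox against 41479 and 38910 bp in KO, and in Negr1 28298 and 23175 bp against 29014 and 30445 bp, without overlap of the genotypes. Together the 4 genes had 3 flox-only and 14 KO-only regions, 6 of the latter in Lsamp, beside 303 and 357 in all very long genes, of which 147 of 216 had a log2 difference above 0. Opcml and Ntm are neighbours on chromosome 9, and whether the 4 differ from other adhesion genes was not tested.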
